A study of Mus musculus with 2 samples.

Results

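Grem1-type fibroblasts were the stromal cells of a mouse intestinal co-culture in which a set of crypt-niche and chemokine transcripts outnumbered a set of elastic-matrix transcripts. A cell was called a fibroblast when Col1a1, Col1a2, Col3a1, Sparc and Dcn together had more UMIs (unique transcript molecules) than Epcam, Krt8, Krt18, Krt19 and Cldn7. The members were chosen by measured values: a fibroblast was called Grem1-type when Grem1, Rspo3, Ccl7, Hsd11b1 and Cxcl5 together had more UMIs than Mgp, Lox and Mfap5. By this rule 171 of 657 fibroblasts were members, among 2446 cells that passed the filters and 2507 barcodes in all. The study grew small-intestinal crypts of C57BL6 mice aged 10 weeks together with intestinal fibroblasts in Organoid Growth Media and profiled single cells by Drop-seq, in which each droplet's RNA receives its own barcode. The Ptger4-ON cultures received DMSO, the vehicle, and grew as spheroids. The Ptger4-OFF cultures received ONO-AE3-208, an antagonist of the prostaglandin E2 receptor Ptger4 (EP4), at 10 uM on every second day, and grew as budding organoids. Each condition was 1 library made from 6 pooled cultures, so differences between the libraries have no replicate check: no p-value is given, and every interval is a 95% interval for counting error only.

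Fibroblasts beneath intestinal crypts are known to supply the signals that keep epithelial stem cells dividing. Gremlin 1 (Grem1) binds and blocks bone morphogenetic proteins (BMPs), and R-spondin 3 (Rspo3) amplifies Wnt signalling in epithelial cells that carry Lgr receptors. Prostaglandin E2, made by cyclooxygenases in stromal cells, acts on epithelial cells through Ptger4.

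The members had similar depth in both libraries, with a median of 4643 UMIs per cell in Ptger4-ON and 4410 in Ptger4-OFF, against 4478 and 4591.5 in the other fibroblasts. Summed over cells, the members gave 514298 and 453066 UMIs. No barcode shared by both libraries was a member. In 2 members of each library the epithelial genes reached at least 20% of the collagen-side genes. One of these mixed barcodes, in Ptger4-ON, held 47081 UMIs, 9.15% of all member UMIs there, with 255 epithelial and 265 collagen-side UMIs. It was a member by 1 UMI (8 against 7). Without the mixed barcodes the epithelial genes stood at 0.722% (Ptger4-ON) and 1.99% (Ptger4-OFF) of their summed level in epithelial cells, compared with 5.41% and 3.39% with them.

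Sex-linked transcripts were unevenly spread over the members and the other fibroblasts. The labels do not give the sex of the animals, and these genes were examined after Xist had appeared among the genes low in the members. At least 1 UMI of the Y-linked genes Ddx3y, Eif2s3y, Kdm5d or Uty was found in 19 of 76 members in Ptger4-ON (25%, interval 15.8 to 36.3%) and in 19 of 95 in Ptger4-OFF (20%). Among the other fibroblasts the counts were 2 of 218 and 3 of 268, and among epithelial cells 1 of 584 and 1 of 1199. Xist, transcribed from the inactive X chromosome, had a UMI in 36.8% and 40% of members, in 68.3% and 70.1% of the other fibroblasts, and in 84.1% and 88.4% of epithelial cells. No member had both kinds of transcript. Members and other fibroblasts thus differed in sex-linked transcripts as well as in the genes of the rule, so their comparison is given below for all cells and again among cells with an Xist UMI. The second set, with mixed barcodes left out, held 27 and 36 members (median 6397 and 4531 UMIs) and 145 and 186 other fibroblasts.

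**Figure D1:**
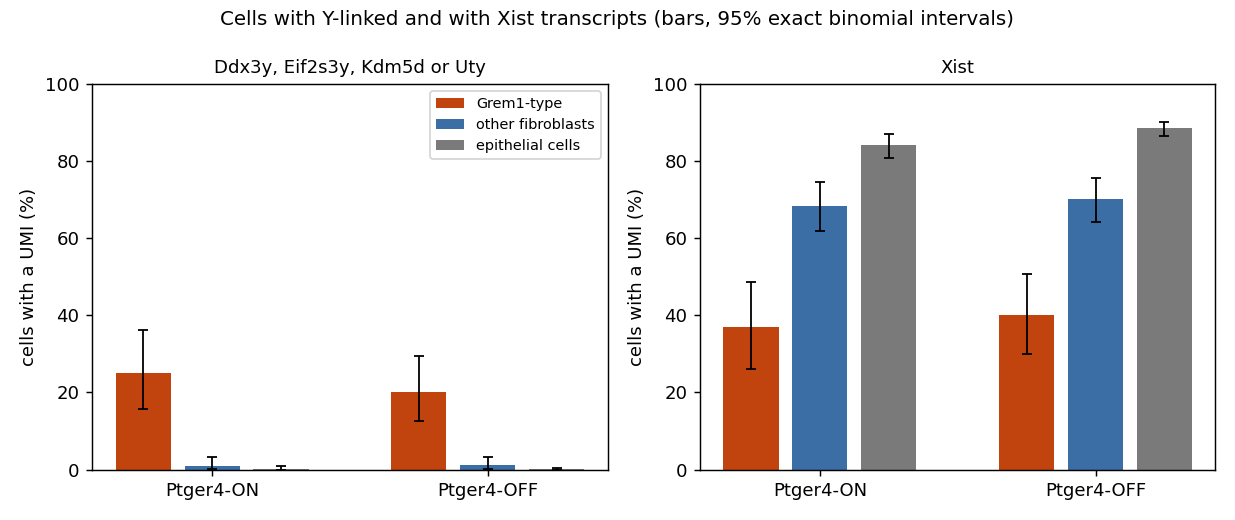
Percent of cells with at least 1 UMI of 4 Y-linked genes (left) and of Xist (right), by cell class and library, with 95% exact binomial intervals. Y-linked transcripts were found in 25% and 20% of Grem1-type fibroblasts, and Xist in fewer of them than of the other fibroblasts in both libraries.

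The share of fibroblasts that met the rule was 25.9% in Ptger4-ON (76 of 294, exact binomial interval 20.9 to 31.3%) and 26.2% in Ptger4-OFF (95 of 363, 21.7 to 31.0%). The intervals overlapped almost entirely, so a difference in share was not detectable at this number of cells. Among fibroblasts with an Xist UMI the shares were 15.7% (27 of 172) and 16.2% (36 of 222).

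The genes of the rule describe the members and are not a finding. In the members the median was 26 UMIs (Ptger4-ON) and 19 UMIs (Ptger4-OFF) on the Grem1 side and 7 and 4 UMIs on the Mgp side. In the other fibroblasts it was 3 and 4 on the Grem1 side and 26 and 24.5 on the Mgp side. Most members were well inside the threshold, since 64 of 76 and 68 of 95 had an excess of at least 5 UMIs. Cells next to it mostly had few UMIs on both sides: the 5 and 8 members with an excess of 1 UMI had medians of 1 against 0 and 4.5 against 3.5 UMIs, and the 7 and 10 cells that missed by 1 had 1 against 2 and 0.5 against 1.5. In Ptger4-ON the few members with an excess of 2, 3 or 4 UMIs had more, with medians of 10 against 8, 12.5 against 9.5 and 10 against 6. The 14 and 7 fibroblasts with equal sums were counted with the others. Grem1 led the sum in 66 of 76 and 65 of 95 members. Ccl7, which encodes a monocyte-attracting chemokine, led it in 3 members of Ptger4-ON and in 19 of Ptger4-OFF. All 5 genes were found together in 14 and 18 members.

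**Figure D2:**
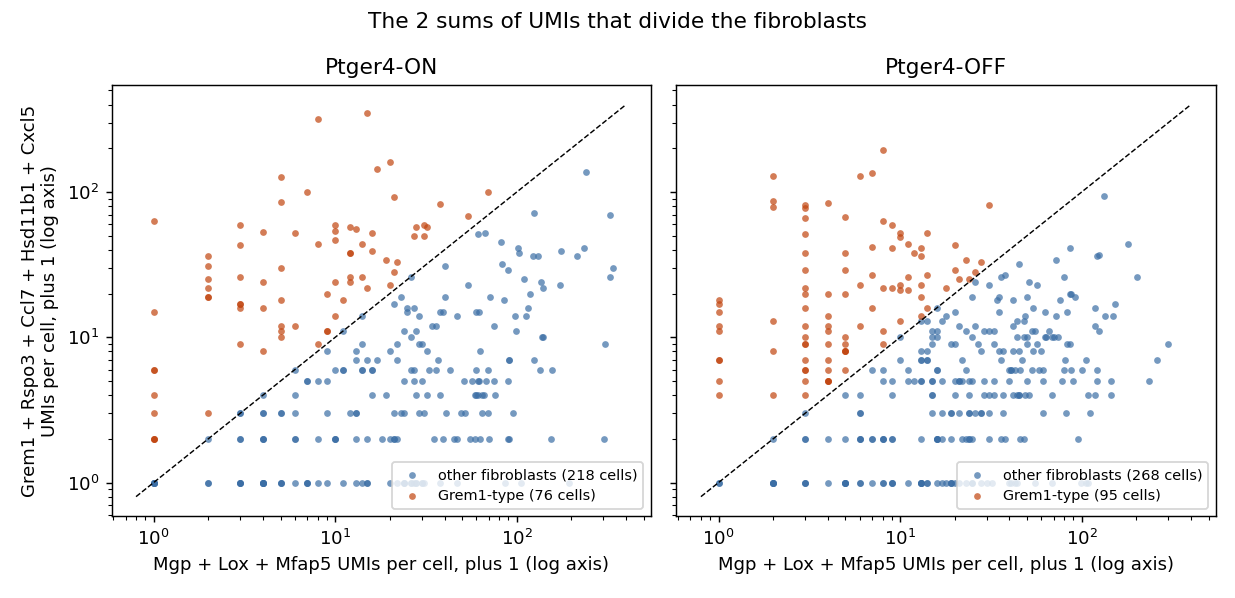
UMIs of the Grem1-side genes against UMIs of the Mgp-side genes in each fibroblast, 1 added, on log axes; the dashed line marks equal sums. The 76 and 95 members lie above the line by construction, and cells next to it mostly have few UMIs on both sides.

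When all fibroblasts were clustered without the member labels, 1 of 5 clusters was led by Fosb, Ereg, G0s2, Gpm6b, Mmp10, Hsd11b1, Grem1, Fgf10, Igfbp4 and Rspo3. This cluster held 47 cells of Ptger4-ON and 52 of Ptger4-OFF, of which 44 and 46 were members. It was picked for the highest mean of the markers given for these cells, several of which the rule also used. Its overlap with the members is therefore partly built in and is not an independent check of the rule. The remaining 32 and 49 members were spread over the other clusters, including 12 and 20 in a cluster led by Mgp and 13 and 12 in a cluster of low depth (median 1525 UMIs) led by Paneth-cell and other epithelial genes. The members are therefore a range cut from 2 sums and not a single cluster.

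Of the 7 markers given for these cells, Mmp10 and Fgf10 were not used by the rule. Mmp10 (stromelysin-2, a secreted metalloproteinase) had 362 CPM (UMIs per 1000000 UMIs of the class and library) in the members of Ptger4-ON and 347 in those of Ptger4-OFF, against 73.7 and 27.1 CPM in the other fibroblasts. It was found in 18 of 76 and 25 of 95 members, and 1 cell gave 19.4% and 23.6% of its UMIs. Fgf10, a growth factor for epithelial cells, had 204 and 225 CPM in the members and 44.8 and 52.1 CPM in the others, a ratio of 4.56 (interval 3.28 to 6.38) in Ptger4-ON and 4.32 (3.17 to 5.92) in Ptger4-OFF. It was spread over 35 and 39 members. Both unused markers were thus higher in the members of each library, as a description of a split made on the same cells. After each cell was thinned to 1000 UMIs, Fgf10 was found in 11.8% of 68 members in Ptger4-ON and 16.3% of 92 in Ptger4-OFF, against 3.03% and 5% of other fibroblasts. Unthinned, Fgf10 had a UMI in 46.1% and 41.1% of members, in 17.0% and 18.7% of other fibroblasts, and in 2 of 584 and 0 of 1199 epithelial cells (median 4658.5 and 4158 UMIs). The count of 0 allows up to 0.25% of cells with a UMI at this depth, which is no limit on cells that express the gene.

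Mmp10 lies at chr9:7502352-7510240 and its relative Mmp3 (stromelysin-1) at chr9:7445822-7455975, both on the plus strand (GENCODE vM21, mm10). The AP-1 genes Fos and Fosb, whose products with Jun partners bind TGANTCA, were also higher in the members. In 4 genes described here, a window of 250 bases before the start (RefSeq, GRCm38.p6) held this motif, each in the form TGAGTCA. Il11 held it at the second listed start and not at the first. The windows are shown with TGAGTCA and, where found, TATAAA in capitals, for Mmp10 (chr9:7502092-7502341, plus strand), Mmp3 (chr9:7445572-7445821, plus strand), Il6 (chr5:30012864-30013113, plus strand) and the second listed start of Il11 (chr7:4778142-4778391, minus strand).
Mmp10: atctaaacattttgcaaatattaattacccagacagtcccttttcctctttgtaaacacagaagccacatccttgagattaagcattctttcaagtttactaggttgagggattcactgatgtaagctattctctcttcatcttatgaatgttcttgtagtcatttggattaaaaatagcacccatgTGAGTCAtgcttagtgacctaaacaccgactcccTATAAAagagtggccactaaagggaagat
Mmp3: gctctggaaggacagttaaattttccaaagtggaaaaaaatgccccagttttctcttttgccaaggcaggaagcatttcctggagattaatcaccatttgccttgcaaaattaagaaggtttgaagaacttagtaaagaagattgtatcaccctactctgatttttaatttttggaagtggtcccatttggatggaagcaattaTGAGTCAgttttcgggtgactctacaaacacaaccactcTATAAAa
Il6: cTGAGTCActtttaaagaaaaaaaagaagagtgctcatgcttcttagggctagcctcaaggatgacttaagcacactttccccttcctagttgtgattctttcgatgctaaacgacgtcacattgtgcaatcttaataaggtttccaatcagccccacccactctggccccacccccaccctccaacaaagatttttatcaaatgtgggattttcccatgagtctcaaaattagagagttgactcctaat
Il11: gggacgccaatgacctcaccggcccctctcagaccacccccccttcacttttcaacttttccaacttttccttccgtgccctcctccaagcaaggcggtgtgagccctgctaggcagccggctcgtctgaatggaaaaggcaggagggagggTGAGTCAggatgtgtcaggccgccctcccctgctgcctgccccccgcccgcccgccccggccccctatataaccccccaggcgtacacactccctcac
The motif began 63 bases before the start in Mmp10, 46 in Mmp3 and 98 in Il11, and at the far end of the window in Il6. On either strand, TGANTCA occurred in 2217 of 32851 such windows (6.75%) and TATAAA in 12.4%. A match describes the letters and was not tested as a binding site. Of 12 genes looked for, 7 had a RefSeq window, and the motifs are reported only for the genes shown. The genes shown were chosen and not drawn at random, so their matches are not set against these shares.

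Across all genes, 360 of 8415 genes with at least 20 UMIs in the fibroblasts of Ptger4-ON (4.28%) were past 2-fold higher in the members than in the other fibroblasts and 376 (4.47%) were past 2-fold lower, 8.75% either way, with the genes of the rule left out. In Ptger4-OFF the counts were 290 of 8309 (3.49%) higher and 357 (4.3%) lower, 7.79% either way. The median log2 ratio of all genes was 0.03 and -0.01, so the members and the others were compared on nearly the same scale. Since the rule split these cells, the counts are a description.

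Named growth-factor genes, among them Ereg and Fgf10, were higher in the members, while the growth-factor list as a whole was not. Ereg (epiregulin) had 262 and 322 CPM in the members and 53.2 and 45.6 CPM in the others, a ratio of 4.94 (3.67 to 6.69) in Ptger4-ON and 7.06 (5.23 to 9.63) in Ptger4-OFF. Fgf7, a second growth factor for epithelial cells, had 227 and 121 CPM in the members and 79 and 64.9 CPM in the others. Of 21 listed FGF and other growth factors, 14 were measured, with 3 past 2-fold higher and 2 lower in Ptger4-ON and 1 higher and 2 lower in Ptger4-OFF (median log2 ratio -0.0062 and -0.03). Fgf21, named outside the rule as the lowest of them, had 1 and 4 UMIs in the members and 21 and 50 in the others. Of 8 EGF family ligands, 4 were measured, and 3 of them in Ptger4-ON and 1 in Ptger4-OFF were past 2-fold higher (median log2 ratio 1.37 and 0.64). Insulin-like growth factor binding protein 4 (Igfbp4) had 422 and 236 CPM against 79 and 79.9 CPM, and Igfbp6 had 11.7 and 39.7 against 90.4 and 131 CPM. Of the 6 IGF binding proteins, 2 were past 2-fold higher and 2 lower in Ptger4-ON, and of the 4 measured in Ptger4-OFF 1 was higher and 2 were lower. Gpm6b, a proteolipid-family membrane glycoprotein, had 292 and 216 CPM against 39.5 and 23.5 CPM, ratios of 7.38 (5.35 to 10.3) and 9.19 (6.14 to 14.1).

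**Figure D3:**
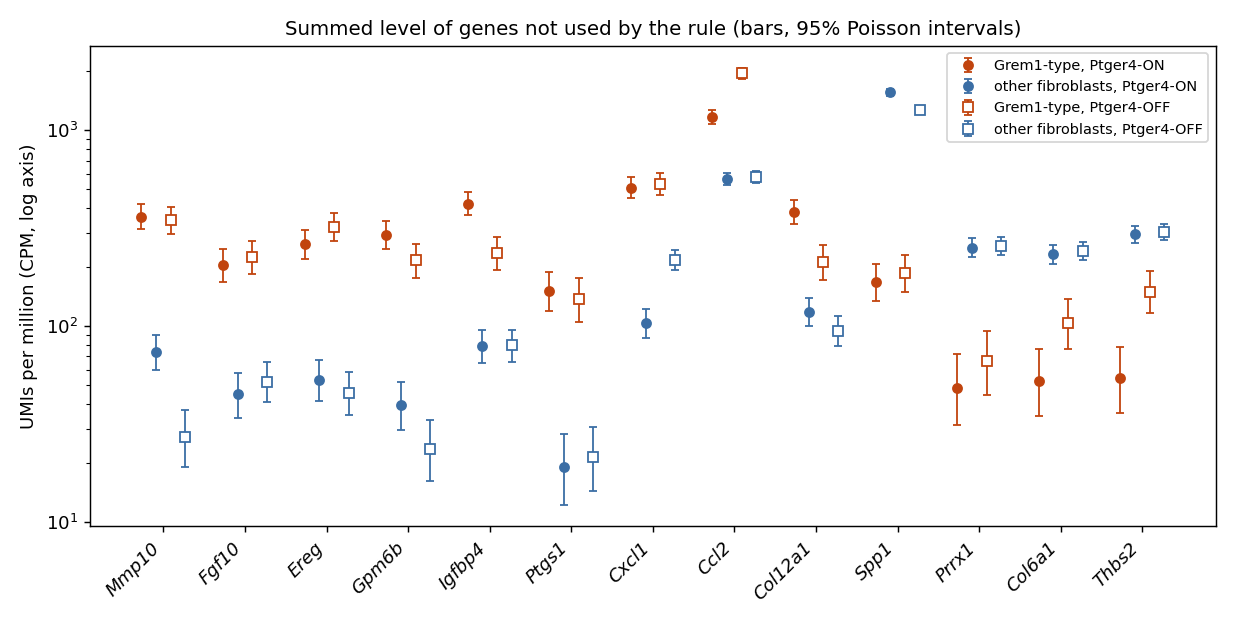
Summed level (CPM, log axis) of 13 genes not used by the rule in Grem1-type and other fibroblasts of each library, with 95% Poisson intervals. The first 9 genes are higher in the members of both libraries and the last 4 (Spp1 to Thbs2) are lower.

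These differences did not hold alike among cells with an Xist UMI. Fgf10 kept a ratio of 4.01 (2.55 to 6.25) and 3.11 (1.98 to 4.83), and Gpm6b one of 5.49 (3.64 to 8.28) and 3.6 (1.9 to 6.68). Igfbp4 stood at 76.5 and 100.2 CPM in the members and at 77.6 and 80.2 in the others, ratios of 0.985 (0.539 to 1.69) and 1.25 (0.726 to 2.05), so its excess was not seen there. Its level was 875 and 615 CPM in the 19 and 19 members with a Y-linked UMI. Mmp10 and Ereg kept an excess that differed between the libraries: 1.92 (1.25 to 2.89) and 19 (11.3 to 33.5) for Mmp10, and 1.91 (1.1 to 3.19) and 5.31 (3.43 to 8.21) for Ereg. The Mmp10 ratio in Ptger4-OFF leaned on a single cell. The top member cells there held 37 and 36 Mmp10 UMIs. Members with a Y-linked UMI, an Xist UMI or neither held 18, 68 and 71, so a single top cell gave 36 or 37 of the 68. Members with an Xist UMI, mixed barcodes included, were also less Grem1-like. Of them, 15 of 28 and 10 of 38 lay in the cluster led by the niche genes, against 16 of 19 in each library for a Y-linked UMI. Their medians on the Grem1 side were 43 and 13 UMIs, against 58 and 37. The part of this make-up and of the animals' sex in these differences was not tested.

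**Figure D4:**
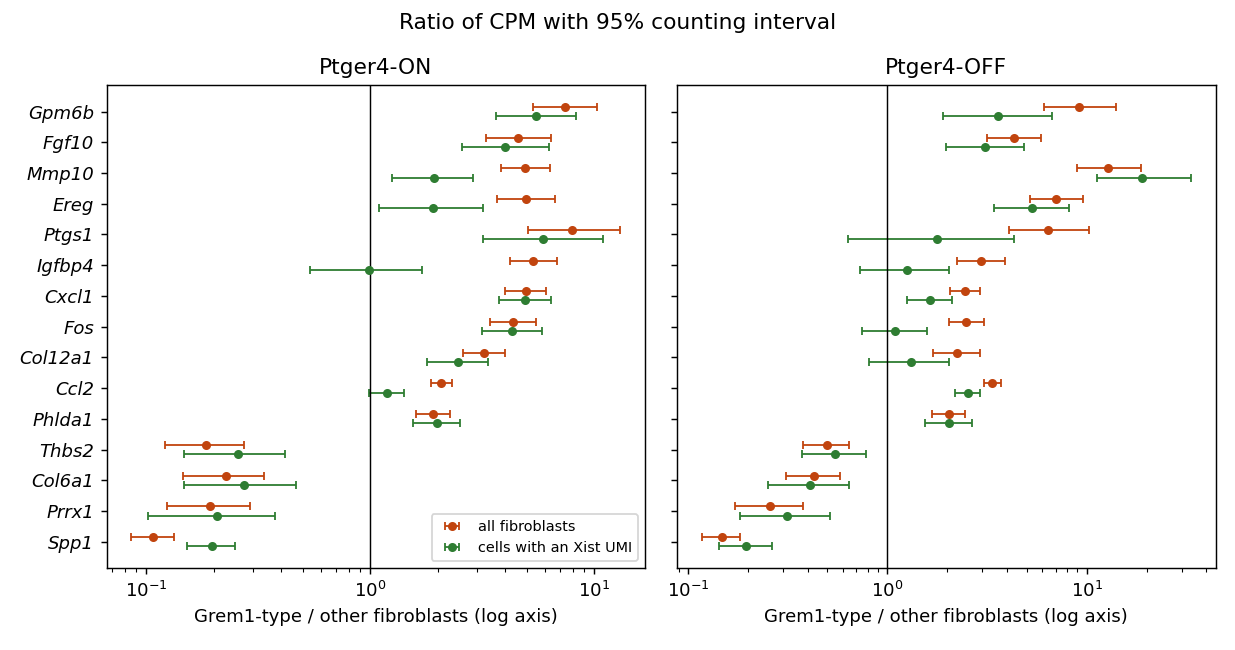
Ratio of CPM in Grem1-type over other fibroblasts for 15 genes, with 95% counting intervals on a log axis, in all fibroblasts and in those with an Xist UMI. Fgf10 and Gpm6b stay above 1 in both libraries, the ratio of Igfbp4 is near 1 among cells with an Xist UMI, and the 4 genes at the bottom stay below 1.

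Wnt signals other than Rspo3 were few. Of 17 Wnt ligands and R-spondins, 2 could be compared beside Rspo3: Wls, the Wnt cargo receptor, had 618 and 817 CPM in the members and 606 and 794 CPM in the others, and Wnt5a had 36.9 and 37.5 against 44.8 and 43.5 CPM. Neither differed by more than counting error. Secreted Wnt inhibitors were more frequent in the members. Dkk2 had 187 and 124 CPM against 103 and 37.8 CPM, and Dkk3 had 109 and 94.9 against 38 and 39.2 CPM. Sfrp1, which binds Wnt proteins, had 15 and 17 UMIs in the members and 1 and 1 in the others, a ratio of 38.4 (5.91 to 1616) in Ptger4-ON. Among cells with an Xist UMI, Dkk2 stood at ratios of 1.63 and 0.978, and Sfrp1 had 2 and 1 UMIs in the members.

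The BMP antagonists other than Grem1 were not higher in the members as a list. Of 11 BMP antagonists, 7 beside Grem1 were measured in Ptger4-ON, of which none was past 2-fold higher and 3 were past 2-fold lower (median log2 ratio -0.35), and 8 in Ptger4-OFF, with none higher and 1 lower (-0.04). Of 11 BMP ligands, Gdf15 was measured in both libraries, with 48.6 and 37.5 CPM in the members and 22.0 and 17.8 CPM in the others, and Bmp2 in Ptger4-OFF. Bmp2 had 13 and 24 UMIs in 8 and 11 members, against 0 and 1 UMIs in 218 and 268 other fibroblasts. Of 13 BMP receptors and targets, 11 were measured, with 1 past 2-fold higher and none lower in Ptger4-ON and 1 higher and 2 lower in Ptger4-OFF (median log2 ratio 0.10 and 0.045). Acvrl1, a type I receptor of the family, had 113 and 72.8 CPM against 43.3 and 54.2 CPM, with a ratio of 2.6 (1.78 to 3.82) in Ptger4-ON and 1.34 (0.865 to 2.05) in Ptger4-OFF. Id2, a BMP target, had 35.0 and 68.4 against 22.8 and 27.1 CPM.

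Chemokine genes outside the rule were higher in the members as well. Ccl2, a monocyte chemoattractant that lies next to Ccl7 (chr11:82035571-82037453 and chr11:82045712-82047525), had 1169 and 1949 CPM against 564 and 579 CPM. The neutrophil chemoattractant gene Cxcl1 had 509 and 532 against 103 and 218 CPM. Its neighbour in function Cxcl2 had 173 and 99.3 against 12.2 and 25.7 CPM, but 1 cell gave 66.3% of its UMIs in Ptger4-ON. Each of the 5 measured CXC chemokines was above the others in both libraries, with 2 (Ptger4-ON) and 3 (Ptger4-OFF) past 2-fold. Among cells with an Xist UMI the ratio of Ccl2 was 1.18 (0.987 to 1.41) in Ptger4-ON and 2.54 (2.2 to 2.93) in Ptger4-OFF.

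Prostaglandin synthesis genes differed in which enzyme was high. Ptgs1 (cyclooxygenase-1) had 152 and 137 CPM in the members and 19 and 21.4 CPM in the others, ratios of 7.99 (5.03 to 13.1) and 6.4 (4.07 to 10.2). Ptgs2 (cyclooxygenase-2), a gene named outside the rule because of its place in the study, had 634 and 711 CPM against 814 and 600 CPM, with ratios on opposite sides of 1. The prostaglandin E synthase gene Ptges had 136 and 113 against 50.9 and 70.6 CPM. Pla2g4a, whose product releases arachidonic acid, was lower in the members (144 and 141 against 248 and 227 CPM). The drug's target had few UMIs in the stroma: Ptger4 had 2 and 1 in the members, 2 and 0 in the other fibroblasts, and 149 and 222 in epithelial cells. These counts come from unlike totals and are not a ratio of levels. The totals were 514298 and 453066 UMIs in the members and 1316491 and 1402262 in the other fibroblasts. In epithelial cells they were 5551679 and 7596011. Among cells with an Xist UMI, Ptgs1 kept a ratio of 5.88 (3.18 to 10.9) in Ptger4-ON and stood at 1.77 (0.635 to 4.32) in Ptger4-OFF.

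Genes listed as cAMP-responsive were higher in the members as a list. Of 18 listed genes, 14 were measured in Ptger4-ON, of which 7 were past 2-fold higher and none lower (median log2 ratio 1.00), and 11 in Ptger4-OFF, of which 4 were higher and 1 lower (0.88). Rgs2, an inhibitor of G-protein signalling, had 71.9 and 70.6 CPM against 5.32 and 2.85 CPM. The nuclear receptor gene Nr4a1 had 75.8 and 26.5 against 7.6 and 4.99 CPM, and Pde4b, a cAMP phosphodiesterase, had 54.4 and 39.7 against 6.84 and 7.84 CPM. Fos had 381 and 377 against 88.1 and 151 CPM, and Fosb 148 and 119 against 26.6 and 25 CPM. Of 17 nuclear-RNA and dissociation-response genes, which include Fos and Fosb, 15 were measured, and 2 (Ptger4-ON) and 3 (Ptger4-OFF) were past 2-fold higher (median log2 ratio 0.23 and 0.39), and their part in the result was not tested. Among cells with an Xist UMI, 4 of 8 and 1 of 9 measured genes were past 2-fold higher, and Fos had ratios of 4.31 (3.16 to 5.86) and 1.1 (0.745 to 1.58).

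Several named genes of the matrix were lower in the members. Spp1 (osteopontin) had 167 and 188 CPM against 1558 and 1274 CPM, ratios of 0.107 (0.0855 to 0.133) and 0.147 (0.117 to 0.183). The collagen VI genes Col6a1 and Col6a2 had 52.5 and 104 against 232 and 242 CPM, and 25.3 and 59.6 against 143 and 147 CPM. Thbs2 (thrombospondin-2) had 54.4 and 150 against 294 and 302 CPM. Col12a1, a fibril-associated collagen, went the other way, with 383 and 212 against 118 and 94.8 CPM. Of 28 matricellular and elastic-fibre genes, 23 were measured in each library, with 6 (Ptger4-ON) and 4 (Ptger4-OFF) past 2-fold lower and 3 and 2 past 2-fold higher (median log2 ratio -0.13 and 0.05). Of 18 measured fibrillar collagen and processing genes, 3 (Ptger4-ON) and 2 (Ptger4-OFF) were past 2-fold lower and none higher, and 14 and 12 lay below 0 (median log2 ratio -0.33 and -0.12). Of the other collagen and basement-membrane genes, 4 of 17 were past 2-fold higher and 3 lower in Ptger4-ON (-0.17), and 2 of 16 higher and 2 lower in Ptger4-OFF (0.03).

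The transcription factor gene Prrx1, a marker of limb and skin mesenchyme, had 48.6 and 66.2 CPM in the members and 251 and 256 CPM in the others. Its ratios of 0.193 (0.123 to 0.291) and 0.259 (0.172 to 0.376) were nearly the same among cells with an Xist UMI (0.206 and 0.315). Other genes low in the members by 1.6-fold or more in both libraries were Ptx3 (pentraxin 3), Pcolce, Il6st (the shared receptor of the IL-6 family), Anxa3, Car6, Slc16a1 and Iqgap1, with ratios between 0.4 and 0.625. Ptx3 stood at 0.749 and 0.952 among cells with an Xist UMI. Smaller excesses in the members were seen for Actg2 (332 and 375 against 149 and 157 CPM), Filip1l, Phlda1, Tmem176b and the histone genes Hist1h2bc and Hist1h1c, with ratios between 1.66 and 2.39.

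Defining markers of other stromal subtypes were checked against the label. Of the trophocyte markers described for crypt-bottom fibroblasts, Wnt2b had no UMI in any member, which allows a share of up to 3.95% of 76 and 3.16% of 95 members with a UMI, Ackr4 had 11 and 3 UMIs, and Cd81 had 496 and 528 CPM against 456 and 477 CPM. Cd34 had 75.8 and 26.5 against 19.7 and 38.5 CPM, with ratios on opposite sides of 1. Of the telocyte markers, Pdgfra had 68 and 50 UMIs and Wnt5a 19 and 17 in the members, and 2 of the 5 measured were at 0 in each library. Against the other fibroblasts, 3 telocyte markers could be compared and none was past 2-fold. Pdgfra was higher in the members (log2 ratio 0.60 in Ptger4-ON and 0.33 in Ptger4-OFF). F3 was lower (-0.47 and -0.31), as was Wnt5a (-0.25 and -0.18). Ackr4 had fewer than the 20 UMIs needed for a ratio. Whether these lists set the members apart beyond Grem1 and Rspo3, which the rule used, was not tested. Support of crypts was not measured. Smooth-muscle markers summed to 412 and 446 CPM against 173 and 201 CPM, with Des and Synm at 0. Ptprc, the pan-leukocyte gene, was at 0 in all members, and leukocyte markers summed to 31.1 and 30.9 CPM against 9.87 and 6.42 CPM. Pericyte markers summed to 44.7 and 11.04 CPM against 22.0 and 6.42 CPM, of which Kcnj8 gave 19 and 4 UMIs in the members and 3 and 0 in the others. Markers of interstitial cells of Cajal summed to 19.4 and 15.5 CPM against 2.28 and 5.71 CPM, on 10 and 7 UMIs in the members. Enteric-glia and mesothelial markers summed to at most 2.21 CPM in either library, and endothelial markers to 9.72 and 4.41 CPM against 12.9 and 11.4 CPM. The part of these cell types in the comparisons was not tested.

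In the comparison of conditions, the niche genes of the members differed by less than 2-fold in either direction. Grem1 had 4460 CPM in Ptger4-ON and 3459 in Ptger4-OFF, a ratio of OFF over ON of 0.775 (0.727 to 0.827), and its ratio in the other fibroblasts was 0.779 (0.704 to 0.861). Rspo3 had 278 and 238 CPM (0.857, 0.661 to 1.11), Fgf10 204 and 225 CPM (1.1, 0.831 to 1.46), and Mmp10 362 and 347 CPM (0.958, 0.77 to 1.19). Hsd11b1, the enzyme that regenerates active glucocorticoid, had 216 and 311 CPM (1.44, 1.12 to 1.87). Because the rule itself used Grem1, Rspo3, Hsd11b1, Ccl7 and Cxcl5, a change in their balance also changes which cells are members. With Grem1 left out of the rule, the log2 ratio of Grem1 was -0.95 in place of -0.37. Among members with an Xist UMI, the ratio of OFF over ON was 0.53 (0.468 to 0.6) for Grem1 and 0.466 (0.287 to 0.738) for Rspo3. It was 0.938 (0.573 to 1.53) there for Fgf10 and 2.16 (1.41 to 3.38) for Mmp10. For Mmp10, 36 or 37 of the 68 UMIs in Ptger4-OFF came from a single cell, against 33 UMIs in all such members of Ptger4-ON. These sets differed in make-up: of members with an Xist UMI, mixed barcodes included, 15 of 28 in Ptger4-ON and 10 of 38 in Ptger4-OFF lay in the cluster led by the niche genes, with medians of 43 and 13 UMIs on the Grem1 side. The part of this difference in the ratios was not tested, and it applies to each comparison of OFF with ON among members with an Xist UMI.

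Across all genes, 184 of 6538 genes with at least 20 UMIs in the members (2.81%) were past 2-fold higher in Ptger4-OFF and 263 (4.02%) were past 2-fold lower, 6.84% either way, with a median log2 ratio of -0.01. In the other fibroblasts the counts were 155 (1.68%) and 197 (2.14%) of 9211, 3.82% either way. The other fibroblasts gave more UMIs (1316491 and 1402262), so their ratios carry less counting error.

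The monocyte chemokine gene Ccl2, which the rule did not use, was higher in the members of Ptger4-OFF. It had 1169 and 1949 CPM, a ratio of 1.67 (1.5 to 1.85), and its ratio in the other fibroblasts was 1.03 (0.929 to 1.14). With Ccl7 left out of the rule, the log2 ratio of Ccl2 was 0.63 in place of 0.74. Ccl7 had 1021 and 1631 CPM in the members (1.6, 1.43 to 1.79) and a ratio of 1.06 (0.934 to 1.2) in the other fibroblasts, but the rule chose cells by its UMIs, so this is a description only. The difference between the 2 kinds of fibroblast was not tested, having 1 library on each side. Among members with an Xist UMI the ratio of Ccl2 was 1.95 (1.59 to 2.38). Ccl5 had 2 and 59 UMIs, but 58 of the 59 came from 1 cell.

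**Figure D5:**
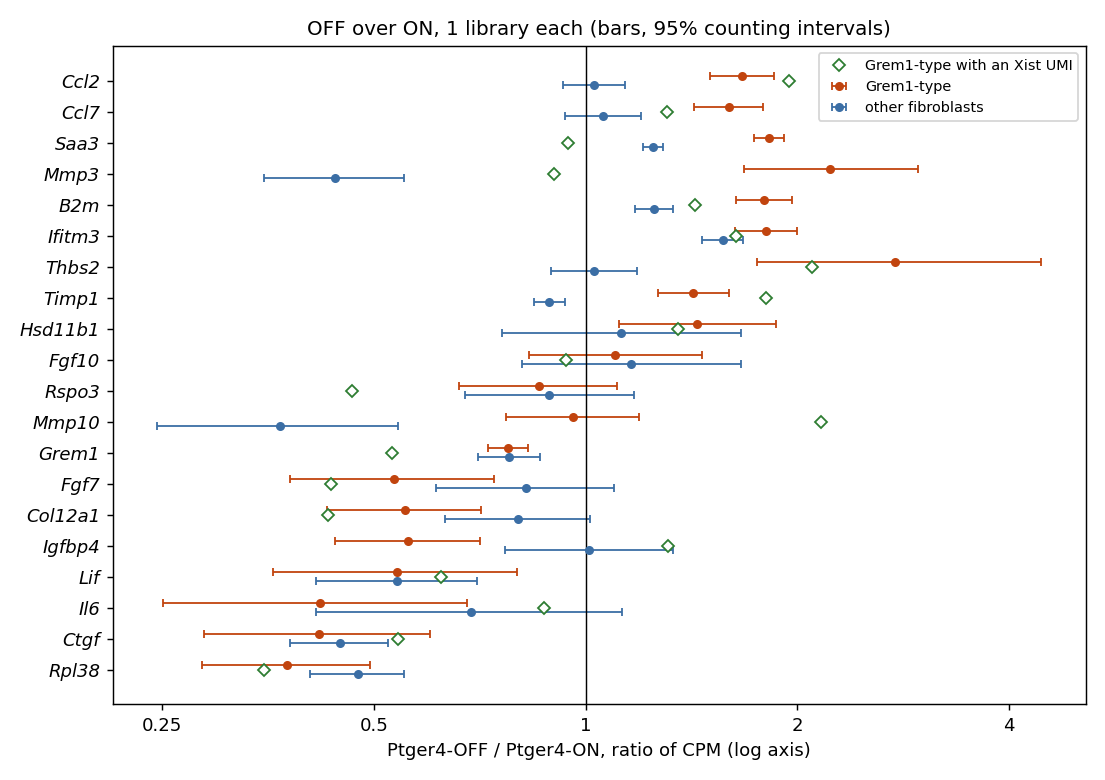
Ratio of CPM in Ptger4-OFF over Ptger4-ON, on a log axis, for 20 genes in Grem1-type fibroblasts and in other fibroblasts with 95% counting intervals, and in Grem1-type fibroblasts with an Xist UMI as diamonds without intervals. Ccl2 lies above 1 in the members and near 1 in the other fibroblasts, Ccl7 and the other genes of the rule chose the members, and the diamonds of Saa3 and Mmp3 lie just below 1.

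Interferon-stimulated genes were higher in Ptger4-OFF as a list. All 13 measured of 17 listed genes lay above 0 in the members, 5 of them past 2-fold (median log2 ratio 0.89), and in the other fibroblasts all 16 measured genes lay above 0, 5 of them past 2-fold (0.41). B2m, the light chain of class I MHC, had 1460 and 2620 CPM (1.79, 1.64 to 1.97), against a ratio of 1.25 (1.17 to 1.33) in the other fibroblasts. Ifitm3, which restricts virus entry, had 1194 and 2154 CPM (1.8, 1.63 to 2). Genes with few UMIs were also higher, with 5 and 17 UMIs for Irf7 and 9 and 23 for Ifit1 (6 and 5 among members with an Xist UMI). With mixed barcodes left out, 12 of 12 lay above 0 and 4 were past 2-fold (0.77). Among members with an Xist UMI, 7 of 7 listed genes lay above 0 and none was past 2-fold (0.52).

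Acute-phase and protease genes differed by which cells were counted. Saa3, an acute-phase protein, had 5359 and 9771 CPM (1.82, 1.74 to 1.91), but its ratio was 0.944 (0.883 to 1.01) among members with an Xist UMI. Mmp3 had 150 and 333 CPM in the members (2.23, 1.68 to 2.97) and 183 and 80.6 CPM in the other fibroblasts (0.44, 0.349 to 0.553). Among members with an Xist UMI the ratio of Mmp3 was 0.902 (0.565 to 1.43). Timp1, an inhibitor of metalloproteinases, had 1036 and 1474 CPM (1.42, 1.27 to 1.6) and kept a ratio of 1.81 there. Pla2g7, which inactivates platelet-activating factor, had 32 and 70 UMIs in 13 and 16 members, 6 and 2 in all other fibroblasts, and 3 and 1 in the members with an Xist UMI.

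Thbs2 was higher in Ptger4-OFF, with 54.4 and 150 CPM (2.76, 1.75 to 4.45), and its ratio among members with an Xist UMI was 2.1. Cav1 (caveolin-1) had 36.9 and 108 CPM (2.93, 1.69 to 5.27). The alarmin gene Il33 had 119 and 241 CPM (2.03, 1.47 to 2.82), below the ratio of 2.65 (2.3 to 3.07) in the other fibroblasts. Plscr2, Steap4 and Stbd1 also had ratios between 2.47 and 2.84 on 20 to 63 UMIs in each library. Ctla2a had 443 and 1375 CPM, but 1 cell gave 53.9% of its UMIs in Ptger4-OFF, and with the top cell of each library left out its log2 ratio was 0.76 in place of 1.63. Its level in the other fibroblasts was 2801 and 1930 CPM.

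Of 20 stromal cytokine genes, 11 were measured, with 6 above 0 and 5 below, 1 past 2-fold higher (Il33) and 2 past 2-fold lower in Ptger4-OFF (median log2 ratio 0.22). Il11 (chr7:4772373-4782859, minus strand) had 56 UMIs in 8 members of Ptger4-ON and 1 UMI in Ptger4-OFF, 49.3-fold higher in ON (8.5 to 1983), with 3 and 0 UMIs in the other fibroblasts. None of its UMIs came from the members with an Xist UMI, and 1 cell gave 37.5% of them. Il6 (chr5:30013114-30019981, plus strand) had 126 and 53 CPM in 19 and 16 members (0.419, 0.251 to 0.679), but 0.873 (0.338 to 2.21) among those with an Xist UMI. Lif had 159 and 86.1 CPM, a ratio of 0.54 (0.359 to 0.8), and the same ratio in the other fibroblasts was 0.539 (0.413 to 0.7). Il11, Il6 and Lif encode relatives in 1 cytokine family, which was not counted as a list.

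Growth-factor and matrix genes that marked the members were lower in Ptger4-OFF in some cases. Fgf7 had 227 and 121 CPM (0.534, 0.38 to 0.741), against 0.821 (0.613 to 1.1) in the other fibroblasts and 0.435 among members with an Xist UMI. Col12a1 had 383 and 212 CPM (0.553, 0.429 to 0.71), and 0.43 among those with an Xist UMI. Igfbp4 had 422 and 236 CPM (0.56, 0.44 to 0.709) but 1.31 (0.645 to 2.7) among those with an Xist UMI. Ctgf, a target of the YAP and TEAD transcription factors, did not mark the members (log2 ratio to the others -0.71 in Ptger4-ON). Its level in the members was 222 and 92.7 CPM (0.418, 0.286 to 0.601), close to its ratio of 0.447 (0.38 to 0.524) in the other fibroblasts. Of 16 YAP and TEAD targets, 10 were measured in the members, with 8 below 0 and 1 past 2-fold lower (median log2 ratio -0.31).

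Several ribosomal protein genes were among the genes that the naming rule picked as lower in Ptger4-OFF, and ribosomal genes were not counted as a list. Rpl38 had 422 and 159 CPM (0.377, 0.284 to 0.494), Rpl36 401 and 170 CPM, Rpl41 2652 and 1443 CPM and Rps28 414 and 227 CPM. The same genes were lower in the other fibroblasts, at ratios of 0.474, 0.63, 0.623 and 0.489. Rpl35a, Rpl10a and Fau, also of the ribosome, had ratios of 0.571, 0.364 and 0.457 in the members. Hspa8, a constitutive chaperone, had 488 and 271 CPM (0.556, 0.445 to 0.693), and the creatine kinase gene Ckb 107 and 30.9 CPM (0.289, 0.148 to 0.527).

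Cell-cycle genes rested on few cells. In Ptger4-ON the members held 603 UMIs of the G2/M genes, of which 319 (52.9%) came from the mixed barcode of 47081 UMIs. At least 5 such UMIs were found in 4 of 76 and 5 of 95 members, and in 18 of 218 and 31 of 268 other fibroblasts. Of 15 measured G2/M genes, 12 were past 2-fold lower in Ptger4-OFF (median log2 ratio -1.47). Without the mixed barcodes, 9 were measured and 4 were past 2-fold lower (-0.57), and without the cells of at least 5 such UMIs only 1 was measured. No difference in cycling between the members of the libraries can be read from these cells.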

How the data were processed

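Drop-seq libraries, 1 for each condition, were analysed. The authors deposited whole-number counts per gene and barcode, with no normalization. They are read as UMIs from the labels' protocol; the file headers do not name them. STAR 2.6 and mm10 are named per the submitters' processing notes. For the counting tool, annotation and barcode selection the sources used here give nothing. Of 908 and 1599 deposited barcodes, 882 and 1564 passed the filters (300 genes or more, mitochondrial share no higher than 20%), with 7386439 and 9456229 UMIs. Groups came from the sample titles. UMIs were summed per class and library over 18309 genes present in either table and scaled to 1000000 (CPM). A gene absent from 1 table was counted as 0 there. Log2 ratios had 0.5 added to each count, and genes needed 20 UMIs. Poisson, Clopper-Pearson and conditional binomial intervals cover counting error only, and the cultures are pooled, so they say nothing of spread between cultures. The intervals of CPM and of ratios treat the UMIs of 1 cell as independent, so they do not cover spread between cells either. The ratio step was tested on simulated Poisson counts without such spread. That test says nothing of genes whose UMIs came mostly from few cells.

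Genes were named by rule: the 15 highest and 15 lowest against the other fibroblasts (200 CPM on the higher side, the same sign in both libraries, ordered by the smaller log2 ratio), the 15 highest and lowest of OFF over ON (100 CPM, at least 0.5 of the epithelial level, ordered by the interval limit nearest to 1), and up to 6 from each of 35 gene lists. Ptgs2, Ptger4, Cd81, Pdgfra, Ackr4, Bmp4, Wnt2b, Fgf21, Kcnj8 and the Y-linked genes were named outside it, some after their values were seen. A few genes that the rule names are not reported here. The members and lists were chosen with earlier results of these data known. Doublets were kept in the main values; Scrublet called 7 and 4, under 0.5% in Ptger4-OFF, so it cannot be taken to have found them all. Clusters used Leiden at resolution 0.5 on 30 components of 2000 variable genes. Alternatives were other filters, rules with 1 gene left out, thinning to 1000 UMIs, TMM and median-of-ratios factors, equal weight per cell, and sets of cells left out. Python 3.11.15, scanpy 1.11.5, scipy 1.17.1, igraph 0.11.9, R 4.3.3 and edgeR 4.0.16 (TMM factors only) were used.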

Additional observations from a re-analysis of the deposited data

Results flagged for a closer look

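Only the 215 genes named by rule were looked through, where they had at least 20 UMIs in the members. For 8 of these the log2 ratio of Ptger4-OFF over Ptger4-ON had opposite signs in the Grem1-type and the other fibroblasts. Their counting intervals left out 1 in both. Many of the named genes were picked for large ratios, and the same count over all genes was not made. The differences were not tested, since each side is 1 library. Mmp3 had 1.15 in the members and -1.18 in the other fibroblasts, but -0.15 in members with an Xist UMI. Ctla2a had 1.63 and -0.54, with 53.9% of its Ptger4-OFF UMIs in 1 member. Timp1 had 0.51 and -0.17. Smad7, an inhibitor of TGF-beta and BMP signalling, had 0.95 and -0.70, and -0.46 in members with an Xist UMI. Acta2 (smooth-muscle actin) had 0.44 and -0.71, and -0.056 in the members with the top cell of each library left out. Cxcl2 had -0.79 and 1.05, and 0.011 in the members with the top cells left out. Cd34 had -1.48 and 0.95, and 35.9% of its Ptger4-ON UMIs came from 1 member. Frzb, a secreted Wnt inhibitor, had -1.47 and 4.16, on 20 and 6 UMIs in the members and 0 and 9 in the other fibroblasts.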

How the results depend on the processing

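No paired analysis was possible because each condition is 1 library. Each interval covers counting error in these 2 libraries only, and genes with under 20 UMIs were left out of the counts past 2-fold. Sign changes of log2 ratios were counted only for named genes whose main counting interval left out a ratio of 1. Under the alternatives, 2 such values of members over others and 23 of OFF over ON changed sign, and these are the ones listed below. Sign changes of other genes, such as Mmp10 of OFF over ON among members with an Xist UMI, were not counted. The cause was not tested. The alternatives without the 5 deepest members, cycling cells, the top cell of a gene or cells lacking an Xist UMI were chosen after seeing the data. The share of members in Ptger4-ON and Ptger4-OFF was 10.9% and 16.3% without Grem1 in the rule, 33.7% and 39.1% without Mgp, 43.5% and 41.6% without Lox, 16.0% and 14.3% for the Leiden cluster, and 15.7% and 16.2% among cells with an Xist UMI. Counts past 2-fold moved by over 1.5 times as follows. Higher in members of Ptger4-ON: 549 with equal weight per cell, 683 at 10 UMIs, 106 at 50 UMIs and 2123 with no filter. Lower in members of Ptger4-ON: 608 with thinned cells, 950 without Grem1, 218 without Lox, 984 for the Leiden cluster, 962 with equal weight, 590 at 10 UMIs, 156 at 50 UMIs, 1073 with no filter, 585 without the 5 deepest members and 573 among cells with an Xist UMI. Higher in members of Ptger4-OFF: 176 without Lox, 464 with equal weight, 570 at 10 UMIs, 89 at 50 UMIs and 1816 with no filter. Lower in members of Ptger4-OFF: 570 without Grem1, 220 without Mgp, 186 without Lox, 873 for the Leiden cluster, 581 with equal weight, 624 at 10 UMIs, 115 at 50 UMIs and 1176 with no filter. Higher in OFF than ON: 444 with equal weight, 380 at 10 UMIs, 23 at 50 UMIs and 1666 with no filter. Lower in OFF than ON: 172 with thinned cells, 150 without Grem1, 155 for the Leiden cluster, 433 with equal weight, 596 at 10 UMIs, 53 at 50 UMIs, 2306 with no filter, 159 without the 5 deepest members, 171 without cycling cells and 135 among cells with an Xist UMI. The log2 ratio of OFF over ON changed sign among members with an Xist UMI for Acta2 (-1.24), Ccl5 (-0.67), Cxcl2 (0.31), Ifit1 (-0.17), Igfbp4 (0.38), Il11 (0.068, with no UMI in either library), Mmp3 (-0.15), Pla2g7 (-1.15), Saa3 (-0.084) and Smad7 (-0.46). With Grem1 out of the rule it changed sign for Acta2 (-0.36), Pla2g7 (-1.2e-04) and Xist (0.42), and with the Leiden cluster for Ctla2a (-0.99) and Gpm6b (0.10). Without the 5 deepest members it changed sign for Acta2 (-0.57) and Cd34 (0.51), and without the top cell for Acta2 (-0.056) and Cxcl2 (0.011). Acta2 was at -0.52 with thinned cells and -0.43 with equal weight, Ctla2a at -0.40 without Ccl7 in the rule, and Ptx3 at -0.21 without Mgp. Members over others turned for Ptx3 in Ptger4-OFF without Lox (0.22) and for Xist in Ptger4-ON among cells with an Xist UMI (0.31), the gene that chose them. The median of the IGF binding proteins, members over others in Ptger4-ON, turned to -1.07 at 50 UMIs. The G2/M median of members over others in Ptger4-ON turned from 0.78 to -0.21 without Scrublet doublets, -0.23 without mixed barcodes, -0.57 with an excess of 3 UMIs, -2.79 with thinned cells, -2.85 without Grem1, -0.51 without Cxcl5, -3.64 for the Leiden cluster, -0.80 with equal weight, -2.54 without the 5 deepest members and -1.03 among cells with an Xist UMI. The G2/M median of OFF over ON turned to 1.46 with thinned cells, 3.51 without Grem1, 0.0064 with equal weight, 1.15 without the 5 deepest members, 0.68 without cycling cells and 1.38 among cells with an Xist UMI.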

Other observations

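Members with neither a Y-linked nor an Xist UMI numbered 29 in Ptger4-ON and 38 in Ptger4-OFF and were shallower (median 3066 and 2679.5 UMIs) than those with a Y-linked UMI (7760 and 5219). Across the 3 sets (Y-linked UMI, Xist UMI, neither), Ereg had 350, 89.7 and 585 CPM in Ptger4-ON and 693, 220.0 and 205 CPM in Ptger4-OFF. Ccl2 had 1992, 601 and 1268 CPM, and 3532, 1373 and 1654 CPM. Prrx1 had 1, 12 and 12 UMIs in Ptger4-ON, and 2, 17 and 11 UMIs in Ptger4-OFF. Within the cluster led by the niche genes, members with a Y-linked UMI numbered 16 of 44 and 16 of 46.

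Bmp4 had 8 and 5 UMIs in the members and none in the other fibroblasts of either library. Igf1 had 192 and 207 CPM in the members and 115 and 153 CPM in the others, and Igfbp7 1165 and 1139 against 745 and 575 CPM. Tnfrsf11b (osteoprotegerin) had 71.9 and 55.2 against 11.4 and 13.5 CPM.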
